A study of Mus musculus with 28 samples.

Results

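The acinar cell of the exocrine pancreas makes the enzymes that digest food, and its digestive enzyme genes were followed here in RNA sequencing libraries of mouse pancreatic islets. A list of 36 genes was used, and its members were taken as the rows of the deposited table that carry those names. It holds 8 trypsinogens, 3 chymotrypsinogens, 4 elastases, 2 carboxypeptidases, 2 amylases, 6 lipid enzymes or cofactors and the ribonuclease Rnase1. It also holds the trypsin inhibitor Spink1, 4 zymogen granule proteins, the kallikrein Klk1 and 4 transcription factors. Of the 36 genes, 35 had a row among the 14219 genes of the table. Of these, 34 were found by symbol and Amy2b through its Ensembl ID in GENCODE M21, which lists it as an unprocessed pseudogene. Cela3a had no row, so its levels were not analysed here, but its promoter is counted in the search below.

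The islets came from male mice of 10 to 12 weeks on a background of C57Bl6 and 129sv, and each library was 1 mouse. Mice labelled βKlf6KO carried floxed Klf6 alleles (Klf6 flox/flox) and Cre recombinase in 1 Ins1 allele (Ins1 Cre/+), which directs Cre to insulin-producing β cells. Mice labelled control carried the same floxed alleles and intact Ins1 (Ins1 +/+), so that Klf6 was floxed in every mouse and Cre was in 1 genotype only. Within each genotype 8 mice were given S961, a peptide antagonist of the insulin receptor, and 6 were given saline. Islets were freed with Liberase, picked by hand and kept in culture overnight, and RNA of 120 to 150 islets per mouse was used for stranded poly(A) libraries. The question the design sets is how islet genes differ between the genotypes with and without insulin receptor blockade.

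Acinar cells store most of these enzymes as inactive precursors in zymogen granules and release them into the pancreatic duct. In the gut, trypsin cleaves and so activates the other precursors, while Spink1 holds back trypsin that is activated too early. The transcription factor Ptf1a with its partner Rbpjl, together with Nr5a2 and Bhlha15, drives the acinar gene programme. Islets sit among acinar cells in the pancreas, and islets picked by hand after enzymatic digestion carry some acinar cells or their RNA. In islets as a whole, fewer acinar cells and less RNA per acinar cell cannot be told apart.

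Levels are given as CPM, the read count plus 0.5 over the library size implied by the deposited values, or as its log2. The added 0.5 weighs most on genes with few reads. The library size was 0.844 to 1.09 times the total of the reads recovered for the listed genes, with the lowest ratio in control S961 library 2. The libraries held 28868638 to 45001633 reads over the listed genes, and islet hormone genes were high in all of them: 10 β-cell markers took 5.47 to 21.4% of reads and 6 α-cell markers 2.37 to 5.69%. Klf6 did not separate the genotypes: it averaged 7.22 ± 0.51 log2 CPM in βKlf6KO S961 islets, against 6.94 ± 0.72 in control S961 islets (SD, n = 8 each). After saline it averaged 6.97 ± 0.26 log2 CPM in βKlf6KO islets, against 7.0 ± 0.42 in control islets (SD, n = 6 each). The adjusted p of the genotype difference was 0.517 after S961 and 0.974 after saline (limma). These counts cover the whole gene and all islet cells, and the labels do not say which exons are floxed. The log2 ratio of Ins1, which carries Cre in βKlf6KO mice, to Ins2 did not separate the labels either. It ran from -2.25 to -0.86 in βKlf6KO S961 islets and from -2.38 to -0.26 in control S961 islets. After saline it ran from -1.81 to -1.05 in βKlf6KO islets and from -2.35 to -0.49 in control islets. Genotypes are therefore given as the libraries labelled βKlf6KO and control throughout. Of the libraries, 3 stood apart on the first principal component of all genes, namely control S961 libraries 2 and 8 and control saline library 4. These 3 had the lowest β-cell marker shares, at 5.67, 5.55 and 5.47% of reads in the same order. Their Ins2 was 12.3, 13.6 and 13.2 log2 CPM, against group medians of 15.7 in control S961 and 16.3 in control saline islets.

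The 8 trypsinogen genes lie on mouse chromosome 6, and several of them are close to identical, which bears on every value given for them below. Gene positions are from GENCODE M21 on GRCm38. Gm2663 lies at chr6:40995830-40999479 on the minus strand, Try4 at chr6:41302269-41305532 on the plus strand and Try5 at chr6:41311233-41316841 on the minus strand. Prss3 follows at chr6:41373814-41377678 (minus), Gm5771 at chr6:41392356-41397230 (plus), Gm10334 at chr6:41442216-41446145 (minus), Prss1 at chr6:41458932-41463786 (plus) and Prss2 at chr6:41521787-41525079 (plus). The first 60 coding bases of each are shown 5′ to 3′ on the coding strand, with capitals for bases that differ from Prss1.
Prss1: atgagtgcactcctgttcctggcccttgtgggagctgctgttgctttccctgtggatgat
Gm5771: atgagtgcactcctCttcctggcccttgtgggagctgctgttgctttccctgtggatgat
Try4: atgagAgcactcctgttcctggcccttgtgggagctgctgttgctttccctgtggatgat
Try5: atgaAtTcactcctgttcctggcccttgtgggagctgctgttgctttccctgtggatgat
Prss2: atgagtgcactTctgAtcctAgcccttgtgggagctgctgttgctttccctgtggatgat
Prss3: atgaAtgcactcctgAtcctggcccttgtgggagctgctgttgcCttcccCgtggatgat
Gm10334: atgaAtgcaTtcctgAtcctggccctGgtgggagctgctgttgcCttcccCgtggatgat
Gm2663: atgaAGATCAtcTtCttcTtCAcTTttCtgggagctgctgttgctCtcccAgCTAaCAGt

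Over the whole coding sequence, pairwise identity among the 8 genes ranged from 70.1 to 99.1%, with a median of 91.7% over 28 pairs. Prss3 and Gm10334 were the closest pair, at 99.1% with 7 differing bases. Prss1 and Gm5771 shared 97.6% and Try4 and Try5 97.4%, while Gm2663 shared 70.1 to 73.0% with the other 7. Reads were 125 bases long. Of all stretches of 125 bases in the transcripts of Prss3, 37.2% also occurred in another gene, and the share was 34.6% for Gm10334, 23.2% for Try4, 22.2% for Try5, 15.3% for Gm5771, 11.6% for Prss1 and 0% for Prss2. For Gm2663 it was 61.5%, shared with 1810009J06Rik, a neighbouring gene outside the list. Reads from such stretches cannot be assigned to 1 gene by sequence, so values of these genes are uncertain to that extent. Outside the trypsinogens, Ctrc and Cela2a overlap on the same strand, over 21.4% of the exonic bases of Ctrc and 17.7% of those of Cela2a, and Amy1 overlaps Rnpc3 over 32.7%.

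The promoters of the list were searched for the DNA elements of the Ptf1a complex, an E-box (CACCTG or CAGCTG) and a TC-box (TTTCCC), on both strands. RefSeq promoters on GRCm38.p6, from 250 bases before to 50 bases after the start, were matched for 31 of the list's genes. An E-box of the letters CACCTG was present in promoters of 20 of the 31 genes (64.5%), against 20.2% of all 32851 promoters. The form CAGCTG was present for 7 genes (22.6%), against 16.3%, and either form for 23 (74.2%), against 32.9%. The TC-box was present for 12 of the 31 (38.7%), against 25.2% of all promoters. Both elements with starts 6 to 30 bases apart were found for 6 genes (19.4%), namely Cel, Cela1, Cpa1, Ctrb1, Gm5771 and Prss1, against 1.71% of all promoters. The element of Nr5a2 (CAAGGTCA) was found for Cel and Klk1, which is 6.45% of the 31 genes, against 1.56% of all promoters. Matches of letters are not evidence of binding, and near-identical genes such as Prss1 and Gm5771 are not separate observations. The 60-base windows that hold the pair wholly before the start are shown 5′ to 3′ on the gene's strand, with both elements in capitals (CAGGTG and GGGAAA are their forms on the opposite strand), for 5 genes that range from abundant (Cela1, Ctrb1, Cel) to barely detected (Prss1).
Cela1 (chr15:100687978-100688037, minus): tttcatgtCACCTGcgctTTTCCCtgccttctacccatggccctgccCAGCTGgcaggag
Ctrb1 (chr8:111691178-111691237, minus): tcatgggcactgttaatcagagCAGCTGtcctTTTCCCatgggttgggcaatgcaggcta
Cel (chr2:28563447-28563506, minus): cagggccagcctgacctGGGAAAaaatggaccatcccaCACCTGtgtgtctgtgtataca
Gm5771 (chr6:41392248-41392307, plus): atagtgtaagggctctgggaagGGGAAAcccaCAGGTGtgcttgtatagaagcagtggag
Prss1 (chr6:41458802-41458861, plus): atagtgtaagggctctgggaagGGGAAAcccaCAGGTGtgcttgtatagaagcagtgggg

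Acinar transcripts made up a variable and often large part of the islet libraries. Together the 35 genes took 0.654 to 12.7% of all reads, with a median of 3.93%. In βKlf6KO S961 islets the share was 3.65% at the lowest, 3.82% at the median and 12.7% at the highest, and in βKlf6KO saline islets 2.33, 4.32 and 5.74%. In control S961 islets it was 0.654, 2.99 and 5.21%, and in control saline islets 2.08, 4.17 and 5.66%. The 4 groups overlapped. Within βKlf6KO S961 islets, 5 of 8 libraries lay between 3.65 and 3.83% and the other 3 at 6.75, 7.62 and 12.7%. The 8 trypsinogens alone took 0.104 to 2.09% of reads.

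**Figure D1:**
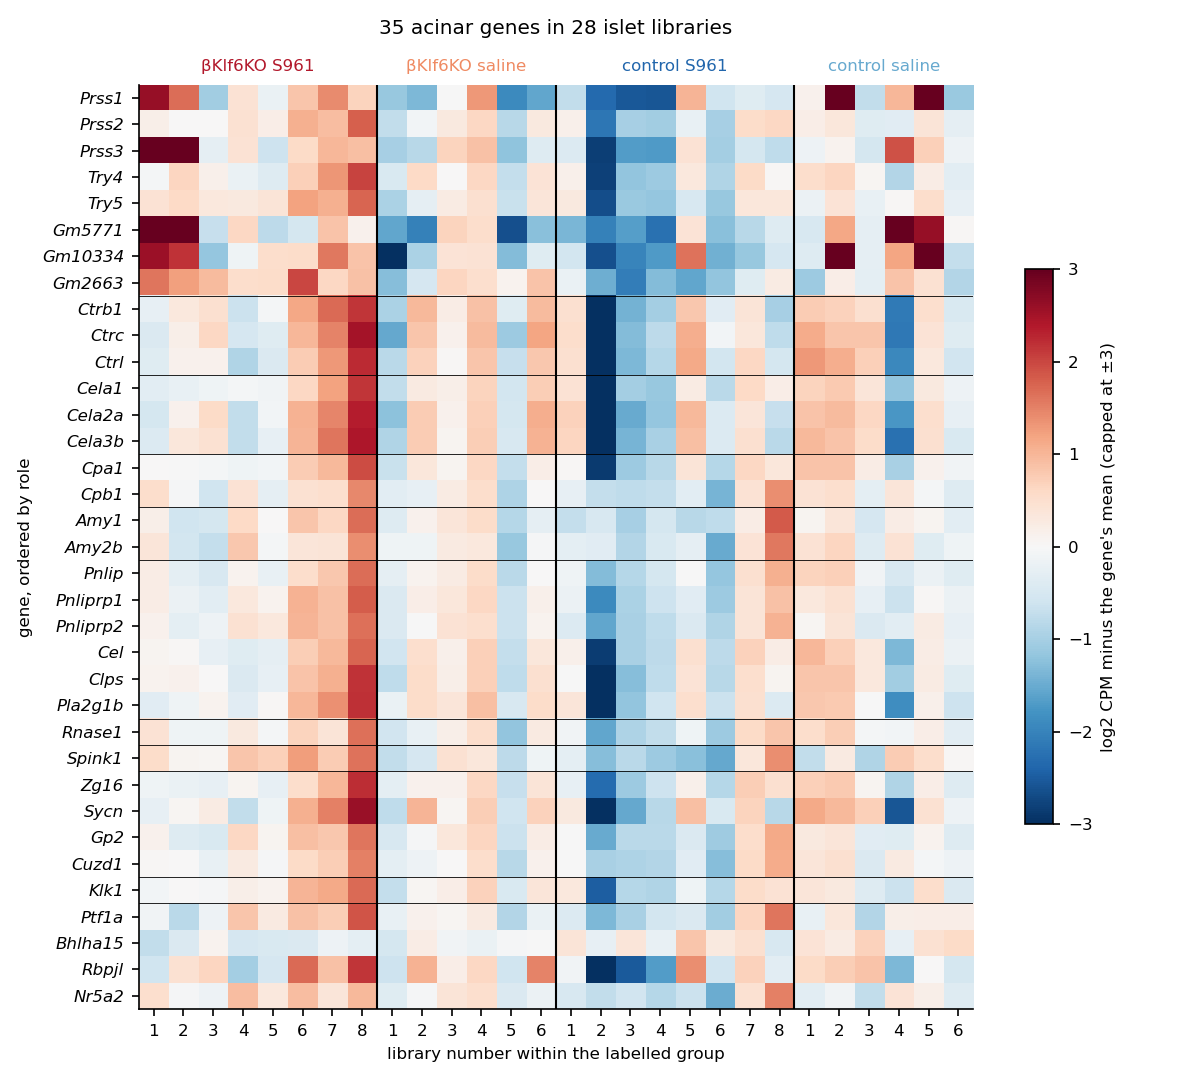
Heat map of the 35 acinar genes (rows, by role) in the 28 libraries (columns, by labelled group), coloured by log2 CPM minus the gene's mean over all libraries, capped at ±3. Blue is below and red above the mean: most rows are blue in control S961 library 2 and red in βKlf6KO S961 library 8, while Prss1, Prss3, Gm5771 and Gm10334 are darkest red in other libraries.

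Per length of the longest coding transcript, chymotrypsinogen Ctrb1 was the highest member, with a median of 6693 CPM per kilobase over the 28 libraries. The elastase Cela1 followed at 6203, the trypsinogen Prss2 at 4734, the trypsinogen Try5 at 3104, the triglyceride lipase Pnlip at 2300, the lipase-related Pnliprp1 at 1619, the carboxypeptidase Cpa1 at 1594 and the trypsinogen Try4 at 1227 CPM per kilobase. Over all annotated exons of its gene, Cela1 was at 2981 CPM per kilobase, below Prss2, so this order depends on the transcript taken. At the low end were the transcription factor Rbpjl at 0.183, Prss1 at 0.436, Gm10334 at 0.479, the transcription factor Nr5a2 at 1.5 and Gm5771 at 1.59 CPM per kilobase. Reads were found for all 35 genes in all 28 libraries, with 1 read as the smallest count, for Gm10334 and for Rbpjl. In shares of the acinar reads, the 8 largest contributors together took 72.9 to 79.5%. Cela1 was the largest at a median of 17% and Ctrb1 the next at 14.6%. Rbpjl did not reach 1 CPM in 6 libraries, the minimum set for a test, and 34 of the 35 genes were tested.

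Levels moved across libraries by a median range of 4.52 on the log2 scale per gene, from 1.56 for Bhlha15 to 7.44 for Gm10334. The lowest value was in control S961 library 2 for 24 of the 35 genes, and the highest in βKlf6KO S961 library 8 for 26. Bhlha15, a transcription factor of serous secretory cells, thus varied least of all members. Its lowest value was in βKlf6KO S961 library 1.

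After S961, part of the acinar genes differed between the labelled genotypes. The tests gave 4 members an adjusted p under 0.05 (limma, Benjamini-Hochberg adjustment over 13591 genes), and all 4 were higher in islets labelled βKlf6KO: the trypsinogens Gm2663, Try5 and Prss3 and the trypsin inhibitor Spink1. That is 4 of 34 members, beside 4.36% of all tested genes called in either direction and 2.35% called higher. Over all genes 320 were higher and 273 lower, and with reads scaled to their totals 274 were higher and 130 lower. Of the 34 members 33 had a positive log2 difference, with a median of 0.98, against a median of 0.02 over all tested genes. The members rise and fall together across libraries (described below), so these 33 signs are not 33 independent observations.

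Gm2663, a trypsinogen-like gene by its sequence, had 11.2, 14.5 and 30.8 CPM (lowest, median, highest) in βKlf6KO S961 islets, against 1.83, 3.24 and 9.14 CPM in control S961 islets. Its lowest βKlf6KO library was above its highest control library. It was the only member whose groups did not overlap, beside 0.383% of all tested genes in this comparison. The log2 difference was 2.03 ± 0.35 (SE, n = 8 each), with an adjusted p of 0.0045 (limma).

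Try5 had 2484, 2908 and 6885 CPM in βKlf6KO S961 islets, against 322, 1201 and 2590 CPM in control S961 islets. The groups overlapped, and all 8 βKlf6KO libraries were above the control mean. The latter held for 25 of the 34 members, most of them not called, and was not counted over all genes. The log2 difference was 1.45 ± 0.34 (SE, n = 8 each), with an adjusted p of 0.0198 (limma).

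Prss3 had 11.2, 28.9 and 164.6 CPM in βKlf6KO S961 islets, against 2.41, 9.31 and 23.2 CPM in control S961 islets. The groups overlapped. βKlf6KO S961 libraries 1 and 2, at 150 and 165 CPM, were far above the other 6, which ran from 11.2 to 34.5 CPM. The log2 difference was 2.11 ± 0.52 (SE, n = 8 each), with an adjusted p of 0.0252 (limma), which became 0.0593 without control S961 library 2 and 0.0575 without control S961 library 3.

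Spink1, the inhibitor that guards against early trypsin activity, had 290, 468 and 865 CPM in βKlf6KO S961 islets, against 95.6, 146 and 734 CPM in control S961 islets. The groups overlapped because of control S961 libraries 7 and 8, at 356 and 734 CPM, while the other 6 control libraries reached 229 CPM at most. The log2 difference was 1.30 ± 0.35 (SE, n = 8 each), with an adjusted p of 0.0346 (limma). This call was lost without any 1 of βKlf6KO S961 libraries 5, 6, 7 and 8 or of control S961 libraries 2, 3 and 5, with adjusted p of 0.0530 to 0.0814. In a fit of the S961 groups alone, Gm2663 kept an adjusted p under 0.05, and the adjusted p was 0.104 for Try5, 0.104 for Prss3 and 0.118 for Spink1.

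**Figure D2:**
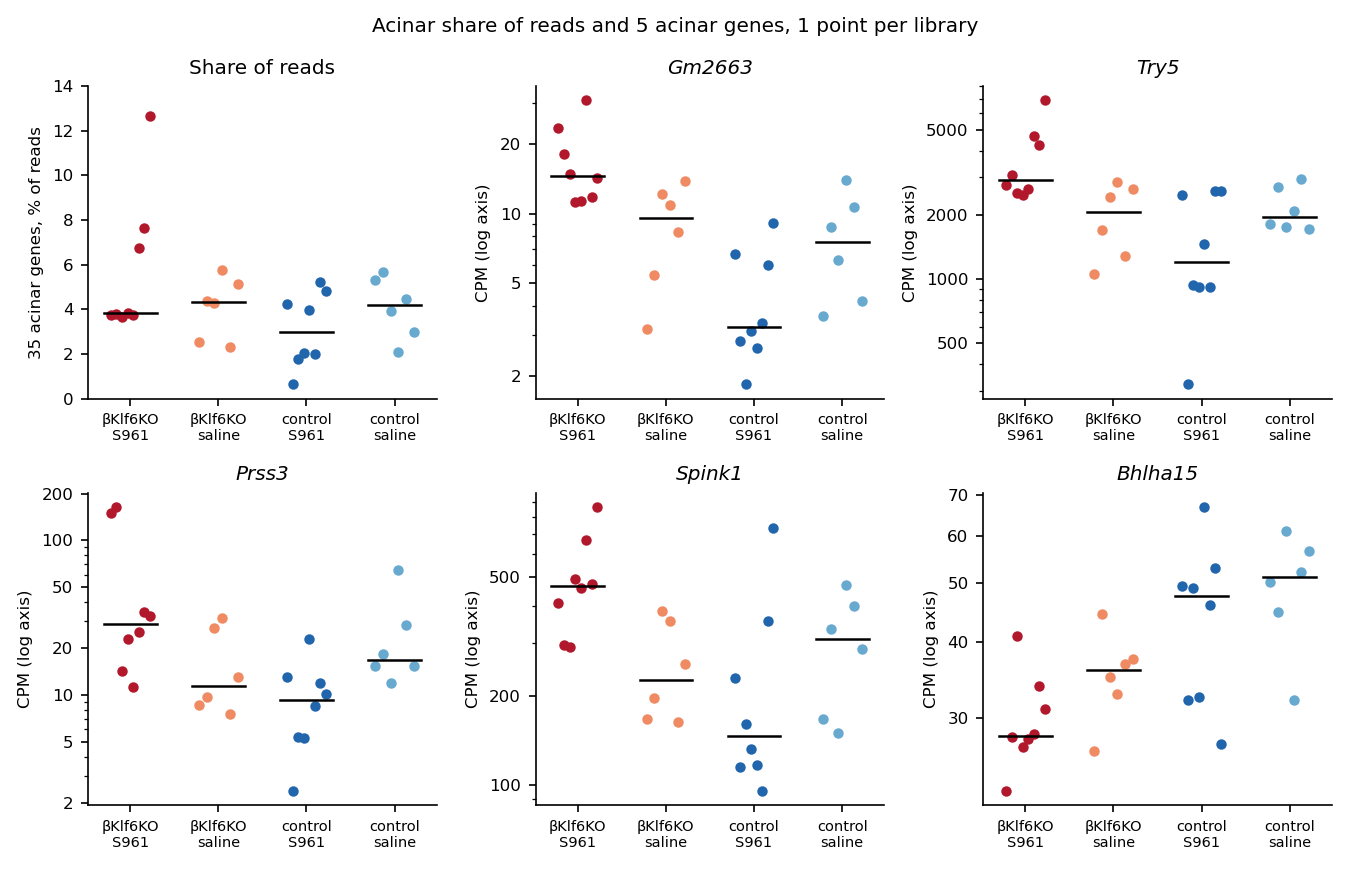
Share of reads from the 35 acinar genes (percent) and levels of 5 genes (CPM, log axis) in each library, with the groups βKlf6KO S961, βKlf6KO saline, control S961 and control saline from left to right. Points are libraries and black bars are medians. Gm2663 in βKlf6KO S961 islets starts at 11.2 CPM, above the highest control S961 library at 9.14 CPM.

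The other members were not called after S961. Among the remaining trypsinogens, the abundant Prss2 had a log2 difference of 1.09 ± 0.33 (SE, adjusted p = 0.0562, limma) and the rare Gm5771 one of 2.25 ± 0.78 (SE, adjusted p = 0.0840, limma). Try4 gave 1.14, Prss1 1.88 and Gm10334 1.91 on the log2 scale. Of the 3 genes with the highest means, the elastase Cela1 had 4816, 5728 and 26802 CPM in βKlf6KO S961 islets, against 765, 5204 and 9203 CPM in control S961 islets. Its log2 difference was 0.95 ± 0.44 (SE, n = 8 each, adjusted p = 0.193, limma). The chymotrypsinogen Ctrb1 had 2930, 6056 and 20493 CPM in βKlf6KO S961 islets, against 233, 2958 and 8080 CPM in control S961 islets, a log2 difference of 1.40 ± 0.57 (SE, n = 8 each, adjusted p = 0.143, limma). The lipase Pnlip had 2577, 4007 and 11333 CPM in βKlf6KO S961 islets, against 1446, 2879 and 7467 CPM in control S961 islets, a log2 difference of 0.60 ± 0.32 (SE, n = 8 each, adjusted p = 0.265, limma). All 3 sets of groups overlapped. The log2 difference of Cela1 was 0.57 with library weights and 0.60 without control S961 library 2. That of Ctrb1 was 0.90 without that library and 0.79 without the 3 libraries that stood apart, and that of Pnlip 0.38 after quantile scaling.

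Positive log2 differences without a call were also seen for the proteases Ctrc (1.26), Ctrl (0.94), Cela2a (1.30), Cela3b (1.29), Cpa1 (0.96) and Cpb1 (0.60). The lipid enzymes Pnliprp1 (0.97), Pnliprp2 (0.95), Cel (0.82), the lipase cofactor Clps (1.07) and the phospholipase Pla2g1b (1.09) lay in the same range, as did Rnase1 (0.79) and Klk1 (0.99). The granule proteins gave 0.84 for Zg16, 1.30 for Sycn, 0.78 for Gp2 and 0.70 for Cuzd1. The amylase genes gave 0.63 for Amy1 and 0.47 for Amy2b, and the transcription factors Ptf1a 0.75 and Nr5a2 0.83. Amylase values given here cover Amy1 and Amy2b only. Amy2a5, an amylase gene outside the list, lay between -5.94 and 0.32 log2 CPM over all libraries. Of the 125-base stretches of Amy2b, 5.57% also occur in another gene, with Amy2a1 and Amy2a2 sharing most. How reads were divided among the amylase genes was not tested. Without adjustment, 27 of the 34 members had a p under 0.05, beside 22.9% of all tested genes.

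Bhlha15 was the exception in direction. It had 22.7, 28 and 40.9 CPM in βKlf6KO S961 islets, against 27.1, 47.6 and 66.99 CPM in control S961 islets. The groups overlapped, and all 8 βKlf6KO libraries were below the control mean. The log2 difference was -0.54 ± 0.16 (SE, n = 8 each), with an adjusted p of 0.0530 (limma). After saline, Bhlha15 had 26.5, 35.9 and 44.5 CPM in βKlf6KO islets, against 32.1, 51.2 and 61.2 CPM in control islets, with all 6 βKlf6KO libraries below the control mean. Its log2 difference there was -0.47 ± 0.19 (SE, n = 6 each), with an adjusted p of 0.209 (limma).

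**Figure D3:**
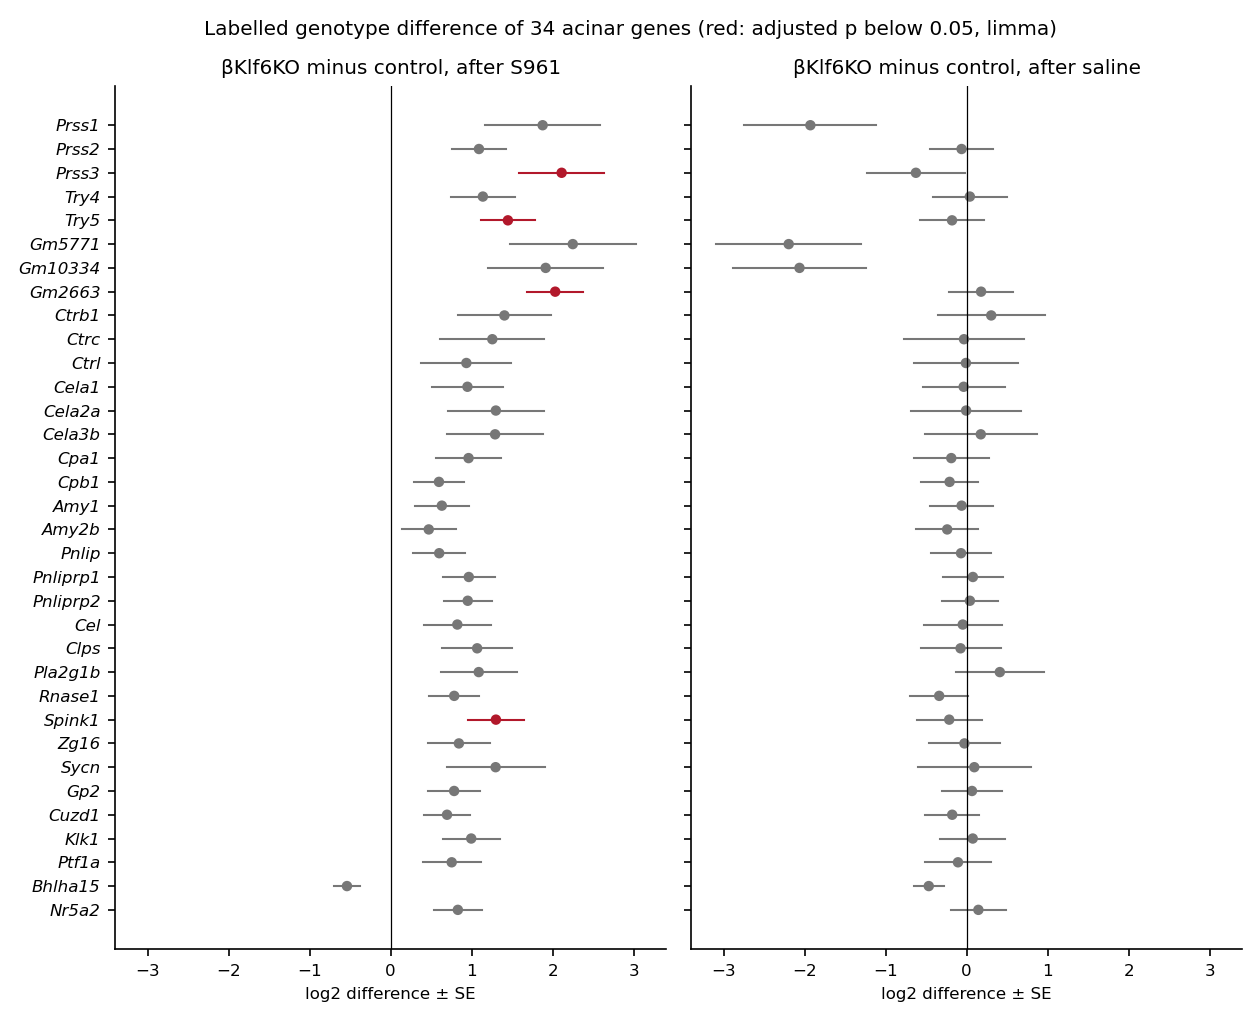
Log2 difference of 34 acinar genes, βKlf6KO minus control, after S961 (left) and after saline (right), with bars of 1 SE and red for an adjusted p under 0.05 (limma). After S961, 33 of 34 points lie right of 0 and 4 are red, and after saline most points lie near 0 with Gm5771, Gm10334 and Prss1 near -2.

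Libraries were sequenced on 4 lanes, each with 2 libraries of either S961 group. The median log2 difference of the members between genotypes after S961 was 0.63, 1.23, 1.39 and 0.96 within lanes 4, 5, 6 and 7. Gm2663 was higher in βKlf6KO S961 islets within every lane, by 1.83, 2.39, 3.10 and 0.81 on the log2 scale in the same lane order. Try5 was higher by 0.79, 2.06, 1.88 and 1.06, Prss3 by 2.82, 2.53, 1.5 and 1.60 and Spink1 by 1.37, 1.67, 1.83 and 0.33. Bhlha15 was lower within each of the 4 lanes, by log2 differences of -0.70, -0.74, -0.49 and -0.23. The mean acinar share of reads was 3.78, 3.77, 5.20 and 10.1% in βKlf6KO S961 islets, against 3.14, 2.30, 1.89 and 5.0% in control S961 islets, in lanes 4, 5, 6 and 7.

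Markers of other cells moved in the same comparison. Of 14 tested genes of a further list of acinar genes, 3 were higher in βKlf6KO S961 islets and none was lower: 1810009J06Rik (2.22), Erp27 (1.13) and Tmed6 (0.71 on the log2 scale). Of the 125-base stretches of Gm2663, 61.5% also occur in 1810009J06Rik, so these genes may not be separate observations. Of 6 fibroblast and stellate markers 4 were higher (Col1a1, Col1a2, Col3a1 and Acta2), of 6 Reg genes 2 (Reg3a and Reg3b) and of 8 ductal markers 1 (Spp1). Of 10 β-cell markers 4 were lower (Slc2a2, Nkx6-1, Pdx1 and Slc30a8). The summed ductal share was 0.0959 to 0.201% of reads in βKlf6KO S961 islets, against 0.0326 to 0.109% in control S961 islets. The summed Reg share was 0.303 to 1.27% in βKlf6KO S961 islets and 0.105 to 0.811% in control S961 islets. The fibroblast and stellate share was 0.00406 to 0.0114% in βKlf6KO S961 islets, against 0.00154 to 0.00616% in control S961 islets. Of 6 α-cell markers, Gc was higher (1.2 on the log2 scale). No macrophage (5 tested), lymphocyte (3) or endothelial (4) marker was called. The part of these cells in the acinar differences was not tested.

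After saline, none of the 34 members was called between the labelled genotypes (limma), beside 2.78% of all tested genes. Over all genes 284 were higher and 94 lower, and with reads scaled to their totals 264 were higher and 46 lower. Without adjustment, 4 of the 34 members (11.8%) had a p under 0.05, beside 14.4% of all tested genes. The median log2 difference was -0.06, against 0.00 over all tested genes, and 11 of 34 were positive. Apart from Bhlha15, given above, the smallest p values belonged to the rare trypsinogens. Gm10334 had 0.0387, 0.338 and 0.703 CPM in βKlf6KO saline islets, against 0.315, 0.806 and 6.75 CPM in control saline islets, a log2 difference of -2.06 ± 0.82 (SE, n = 6 each, adjusted p = 0.204, limma). Gm5771 had 0.277, 0.652 and 2.70 CPM in βKlf6KO saline islets, against 1.23, 2.80 and 24.9 CPM in control saline islets, a log2 difference of -2.20 ± 0.90 (SE, n = 6 each, adjusted p = 0.220, limma). Both pairs of groups overlapped, and the highest values came from control saline libraries 2 and 5 for Gm10334 and 4 and 5 for Gm5771. The lowest value of Gm10334 was 1 read. With values under 1 CPM set to 1 CPM, the log2 difference of Gm10334 was -0.90, and with library weights that of Gm5771 was -1.31. Cela1 differed by -0.04 ± 0.50, Ctrb1 by 0.30 ± 0.66 and Pnlip by -0.07 ± 0.37 (log2, SE, n = 6 each), with adjusted p of 0.983, 0.897 and 0.960 (limma).

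The 95% interval of the saline difference was -1.08 to 1.0 for Cela1 and -0.83 to 0.69 for Pnlip on the log2 scale, so a genotype difference within these bounds remained possible. The interval of Ctrb1, which had a larger SE, was wider. Markers of other cells also differed after saline. In βKlf6KO islets 3 of 5 macrophage, 2 of 3 lymphocyte and 2 of 6 fibroblast and stellate markers and 1 of 6 α-cell markers (Gc) were higher, and 2 of 10 β-cell markers (Slc2a2 and Nkx6-1) were lower.

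S961 was compared with saline within each genotype, and no gene of the table was called in either genotype, so the background was 0% of 13591 tested genes in both. Without adjustment, a p under 0.05 (limma) was reached by 6 members and by 104 genes of the table (0.765%) in control islets. In βKlf6KO islets it was reached by 7 members and by 413 genes (3.04%). In control islets all 34 members had a negative log2 difference, with a median of -0.58, and in βKlf6KO islets 33 of 34 were positive, with a median of 0.45. Over all tested genes both medians were 0.00.

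In control islets the 3 smallest p values were those of Prss1, Gm10334 and Gm5771. Prss1 had 0.0723, 0.266 and 0.861 CPM after S961, against 0.198, 0.657 and 8.72 CPM after saline, a log2 difference of -2.23 ± 0.76 (SE, n = 8 and 6, adjusted p = 0.973, limma). Gm10334 differed by -2.18 ± 0.77 and Gm5771 by -2.32 ± 0.84 (log2, SE, n = 8 and 6, adjusted p = 0.973 each, limma). All 3 overlapped between the treatments. Prss1 and Gm10334 were below 1 CPM in most of these libraries, and with values under 1 CPM set to 1 CPM their log2 differences were -0.86 and -0.82. The abundant Cela1, Ctrb1 and Pnlip differed by -0.68 ± 0.47, -0.78 ± 0.62 and -0.35 ± 0.35 (log2, SE, adjusted p = 0.973 each, limma).

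In βKlf6KO islets the 3 smallest p values were those of Gm2663, Spink1 and Gm5771. Gm2663 had 11.2, 14.5 and 30.8 CPM after S961, against 3.16, 9.57 and 13.8 CPM after saline. Its log2 difference was 0.99 ± 0.37 (SE, n = 8 and 6), and Spink1 differed by 0.96 ± 0.37 and Gm5771 by 2.12 ± 0.84, each with an adjusted p of 1.0 (limma). All 8 S961 libraries were above the saline mean for each of these 3 genes, and the groups overlapped for all 3. With values under 1 CPM set to 1 CPM, Gm5771 differed by 1.40. Cela1 differed by 0.30 ± 0.47, Ctrb1 by 0.32 ± 0.62 and Pnlip by 0.32 ± 0.35 (log2, SE, adjusted p = 1.0 each, limma).

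The difference between the S961 responses of βKlf6KO and control islets was tested directly. No member and no gene of the table (0% of 13591) was called, while 9 members and 350 genes (2.58%) had an unadjusted p under 0.05 (limma). The members' median was 1.04 on the log2 scale, against 0.01 over all tested genes, and 33 of 34 were positive. The smallest p values were those of Gm5771 (4.45 ± 1.19), Gm10334 (3.98 ± 1.09) and Prss1 (3.81 ± 1.08; log2, SE, adjusted p = 1.0 each, limma). With values under 1 CPM set to 1 CPM, these became 3.13 for Gm5771, 1.26 for Gm10334 and 1.10 for Prss1. Cela1 gave 0.99 ± 0.67, Ctrb1 1.10 ± 0.88 and Pnlip 0.67 ± 0.49 (log2, SE, adjusted p = 1.0 each, limma). The 5 comparisons share their groups, and the control S961 group enters 3 of them.

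Most enzymes moved as 1 block from mouse to mouse. To describe this, each member's log2 CPM was centred on its group mean and compared with that of Cpa1 over the 28 libraries, in a family of 41 genes. Pearson's r was 0.865 at the median of the 34 members other than Cpa1, over 0.9 for 15 and over 0.7 for 22. For 27 of the 34, both Pearson's r and Spearman's rho had an adjusted permutation p under 0.05. The bile salt lipase Cel had an r of 0.99 and a rho of 0.98, the colipase Clps an r of 0.99 and a rho of 0.98 and Cela1 an r of 0.98 and a rho of 0.93. Their permutation p was 1e-05 (adjusted 2e-05), the smallest that 100000 resamples can give. Leaving out the libraries farthest from the median of Cpa1, control S961 library 2 and βKlf6KO S961 library 8, changed the median r of the members to 0.820. Cel then had an r of 0.985 and Cela1 of 0.954. All values of a library share 1 scaling size.

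A few members did not follow this block. Gm5771 had an r of 0.01 with Cpa1 and a rho of 0.15 (adjusted permutation p = 0.974 and 0.465). Gm2663 had an r of 0.24 and a rho of 0.24 (adjusted permutation p = 0.291 and 0.286), and Prss3 an r of 0.29 and a rho of 0.41 (0.189 and 0.0515). Bhlha15 had an r of 0.39 and a rho of 0.34 (0.111 and 0.117), and Spink1 an r of 0.45 and a rho of 0.39 (0.0674 and 0.0693). Without the same pair of libraries, r was -0.02 for Gm5771, 0.25 for Gm2663, 0.13 for Prss3, 0.31 for Bhlha15 and 0.33 for Spink1. Prss1 passed adjustment by rho (0.45, 0.0291) but not by r (0.39, 0.0595), and so did Nr5a2 (rho 0.46, 0.0296, and r 0.42, 0.114). The amylase genes had an r of 0.52 for Amy1 and 0.51 for Amy2b, with adjusted permutation p of 0.0356 and 0.0328. Of the markers of other cells, the duct keratin Krt19 had an r of 0.93 and a rho of 0.89 with Cpa1 (adjusted permutation p = 2e-05 each) and an r of 0.88 without the same pair of libraries. The other duct marker Spp1 had an r of -0.21 and a rho of -0.22 (adjusted permutation p = 0.291 and 0.306). Ins2 had an r of 0.61 and a rho of 0.52 (adjusted permutation p = 0.00648 and 0.0125), with an r of 0.39 without that pair. Gcg had an r of -0.46 and a rho of -0.40 (0.0276 and 0.0611), with an r of -0.31 without it.

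Ratios within the acinar block said how far its make-up was constant. Relative to Cpa1, the within-group SD of the log2 ratio was 0.12 for Cel, 0.15 for Clps, 0.20 for Cela1 and 0.21 for Try4. It was 1.83 for Gm5771, 1.39 for Prss1, 1.38 for Gm10334, 1.18 for Prss3 and 0.97 for Gm2663, the 5 largest of all members. Ratios to Cpa1 of 12 members were tested in 4 comparisons, and none of the 48 passed adjustment (exact permutation tests, two-sided, smallest adjusted p = 0.368). The 12 were Amy2b, Pnlip, Pnliprp1, Clps, Cel, Ctrb1, Cela2a, Cela3b, Prss2, Try4, Cpb1 and Zg16. Gm2663, Try5, Prss3 and Spink1, the members called after S961, were not among them, so their ratios to Cpa1 were not tested. The smallest unadjusted p was that of the Cel to Cpa1 ratio in βKlf6KO islets, which averaged -0.55 ± 0.12 on the log2 scale after S961 and -0.37 ± 0.05 after saline (SD, n = 8 and 6). The difference was -0.18 with an exact p of 0.00766, and all 8 S961 libraries were below the saline mean. With Ctrb1 in place of Cpa1 the difference was -0.049.

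The rare trypsinogens set single mice apart. Gm5771 reached 43.4 and 35.7 CPM in βKlf6KO S961 libraries 1 and 2, 24.9 CPM in control saline library 4 and 10.5 CPM in control saline library 5. In the other 24 libraries it lay between 0.277 and 3.83 CPM. Prss3 was also highest in the first 3 of these, at 150, 165 and 64.7 CPM.

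Prss1 and Gm10334 had another order. Prss1 reached 8.72 CPM in control saline library 5 and 4.17 CPM in control saline library 2, and Gm10334 reached 6.75 and 5.36 CPM in the same libraries. The next highest values of both genes were in βKlf6KO S961 library 1, at 2.58 CPM for Prss1 and 3.10 CPM for Gm10334. Cpa1 had 2429 and 2395 CPM in βKlf6KO S961 libraries 1 and 2 and 4386, 1235 and 2657 CPM in control saline libraries 2, 4 and 5. The high values of the rare trypsinogens thus occurred in libraries with both high and low Cpa1. How reads were divided among the near-identical copies was not tested.

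**Figure D4:**
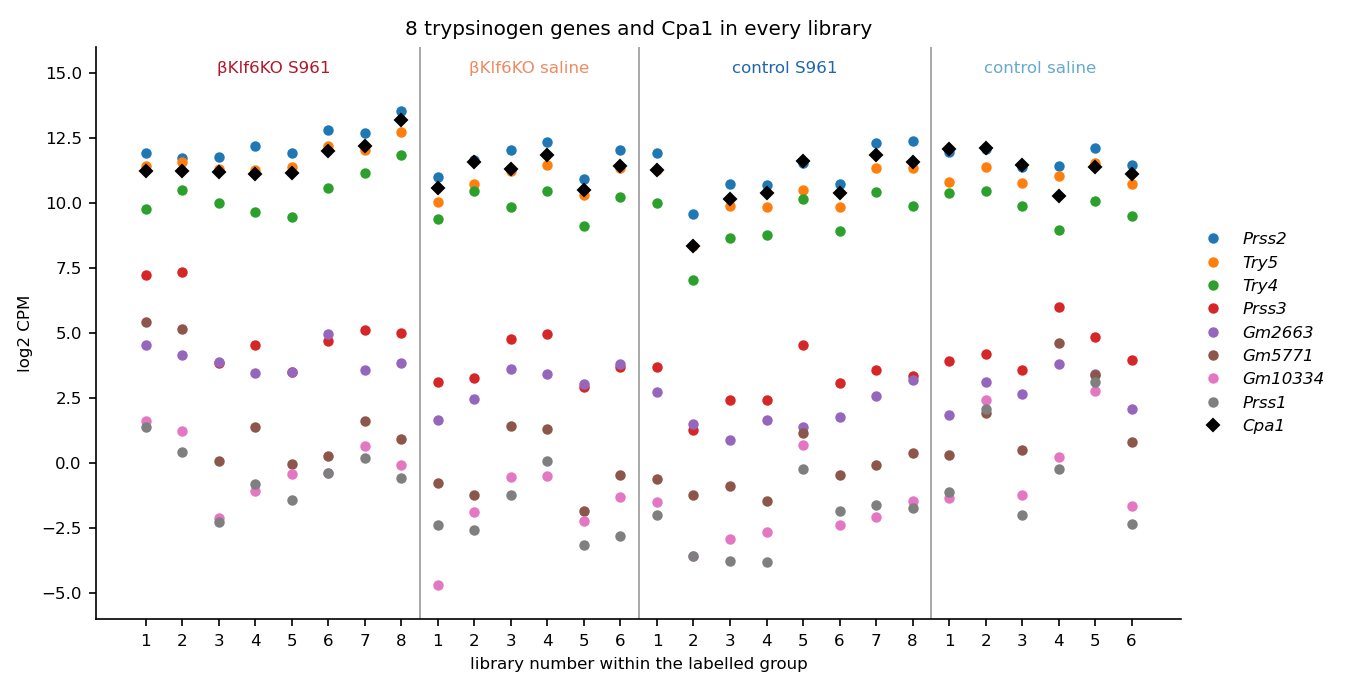
Levels of the 8 trypsinogen genes and of Cpa1 (log2 CPM) in every library, with the groups βKlf6KO S961, βKlf6KO saline, control S961 and control saline from left to right and 1 point per gene and library. Prss2, Try5 and Try4 form an upper band with the Cpa1 diamonds, while Gm5771 lies between 0.277 and 3.83 CPM in 24 libraries and at 43.4, 35.7, 24.9 and 10.5 CPM in 4.

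The members also split by the base composition of their transcripts. Transcript GC content ranged from 40.2% for Amy1 to 57.8% for Rbpjl. Within a library, each member's deviation from the mean of the other libraries of its group was ranked against GC content over the 35 genes. This is a description across genes, which are not independent replicates. It was made for the members only, so it cannot say whether other genes of a library split in the same way. Spearman's rho was -0.77 and -0.67 in βKlf6KO S961 libraries 4 and 1 and -0.65 and -0.60 in βKlf6KO saline libraries 3 and 1. It was -0.75 in control S961 library 2, -0.84 in control S961 library 8 and -0.68 in control saline library 4, the libraries that stood apart on the first principal component. It was 0.80 in control S961 library 6 and 0.79 in control S961 library 5.

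In control S961 library 2, the 18 GC-rich members (GC content at or over the median of 52.9%) deviated by a median of -2.73 on the log2 scale and the 17 GC-poor members by -1.26. In control S961 library 8 the GC-rich members deviated by 0.42 and the GC-poor members by 1.57, and in control saline library 4 by -1.62 and -0.29. Across members, the GC-rich ones had a median log2 difference of 1.26 between the genotypes after S961 and the GC-poor ones of 0.84, with a rho of 0.37 between difference and GC content over 34 genes. Spink1 (44.6% GC) and Gm2663 (45.7% GC), both called, are GC-poor, as is Try5 (51.8%), and Prss3 (54.3%) is GC-rich. Without the 3 libraries, 10 members were called after S961, 9 higher and Bhlha15 lower in βKlf6KO islets, and the members' median log2 difference was 0.81. Over all tested genes, the calls after S961 were 593 in the main fit. They were 858 at most in the alternatives that did not leave out a single library, this one included. The part of base composition in these differences was not tested.

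**Figure D5:**
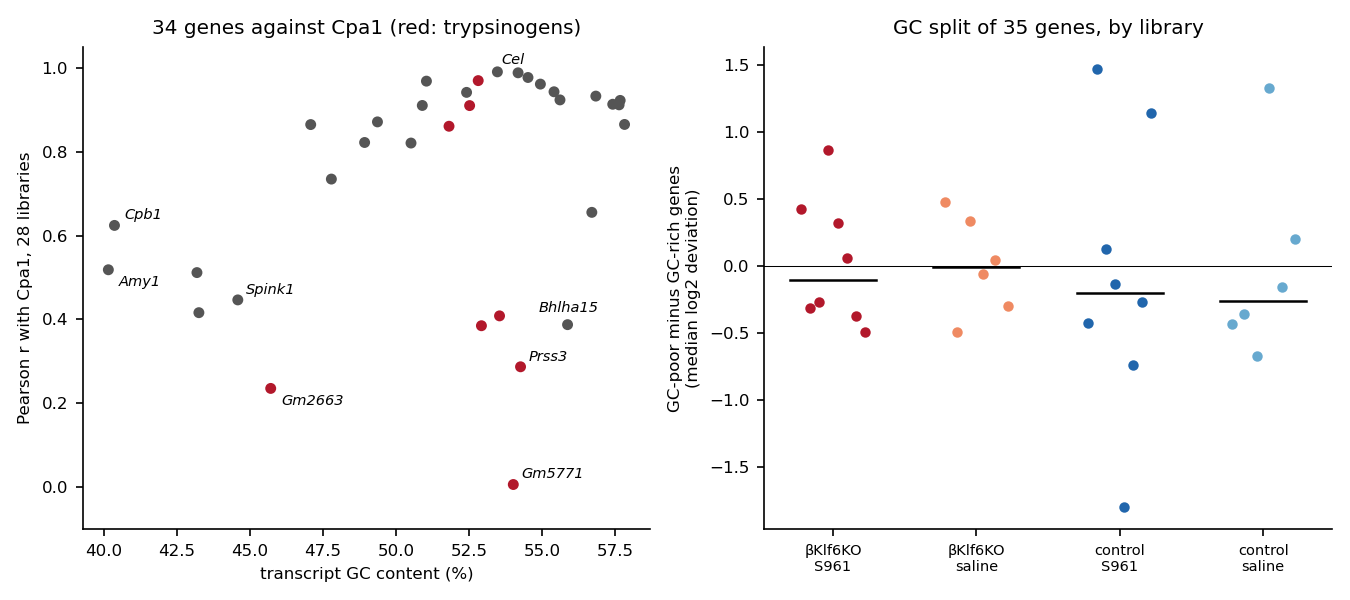
Left, Pearson's r with Cpa1 over 28 libraries (y axis) against transcript GC content in percent (x axis) for 34 members, trypsinogens in red. Right, median log2 deviation of the 17 GC-poor minus that of the 18 GC-rich members per library (points, with black bars for medians), by group from βKlf6KO S961 to control saline. Control S961 libraries 2 and 8 and control saline library 4 lie above 1, at 1.47, 1.15 and 1.33, and the next highest is βKlf6KO S961 library 4 at 0.867.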

How the data were processed

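The authors deposited log2 CPM for 14219 genes in 28 libraries. The submitters' processing notes name STAR 2.5.3a, HTSeq 0.9.1, edgeR and the mouse build GRCm38. The sources used here do not give the strand setting. Undoing the log2 form returned whole reads for 100% of values (tolerance 0.05). A count of 0 would allow 3 reads, which is 0.0685 to 0.105 CPM per library without the added 0.5, for counting error only. The deposited library sizes differ from the read totals, by a factor whose origin the sources used here do not state, and no scaling was added. A gene was tested (13591 were) when 6 or more libraries reached 1 CPM. limma 3.58.1 (R 4.3.3) fitted 4 group means over all libraries, with an intensity trend. Tests were two-sided, with Benjamini-Hochberg adjustment and a threshold of 0.05. The fit was tested on simulated data.

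Libraries are single mice, and p-values measure the spread among mice. Ratios used exact permutation tests and correlations 100000 resamples (scipy 1.17.1). Full values are given for called members and, in each comparison, for the 3 members with the smallest p and the 3 with the highest mean. Single libraries and the Bhlha15 values were picked out after being seen. Members and lists were chosen with earlier results of these data known. Coding sequences, positions and overlaps came from GENCODE M21 and promoters from RefSeq. Alternatives were a stricter filter, a floor, library weights, lane or replicate number as covariates, quantile scaling, scaling to read totals (added after seeing the data), fewer groups and fewer libraries.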

Additional observations from a re-analysis of the deposited data

Results flagged for a closer look

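The values of 35 genes and of the acinar share, in 4 groups, made 144 sets. Chance alone gives about 1 in 20 among independent sets. In 11 of the 144 (7.64%), the most extreme library lay far from the others by Dixon's test. In control S961 library 2 this held for the low values of Ctrb1 (7.87 log2 CPM), Ctrc (-3.57), Cela2a (5.50), Cela3b (5.33), Cel (7.93) and Pla2g1b (1.77). In control S961 library 8 it held for the high value of Amy1 (6.22 log2 CPM), and in control saline library 4 for the low value of Sycn (5.30 log2 CPM). Amy2b was low in βKlf6KO saline library 5 (4.19 log2 CPM). In βKlf6KO S961 library 8, Rnase1 (9.70 log2 CPM) and the acinar share of reads (12.7%) were high. Most members rise and fall together across libraries, so the sets are not independent and their count cannot be weighed against 1 in 20.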

How the results depend on the processing

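After S961, the 4 called members became 1 in a fit of the S961 groups alone, 9 with the replicate number as a block and 10 without the 3 libraries that stood apart, and 2 to 12 when single libraries were left out (2 without control S961 library 2 or 3, 12 without control S961 library 8). With lane as a covariate 6 were called. The calls over all genes after S961 (593) became 35 in the S961 groups alone and 392 after quantile scaling, and 177 to 815 with single libraries left out. They were 858 at most in the alternatives that did not leave out a single library. After saline, 378 calls became 117 when 5 CPM was required, 3018 under library weights and 687 without the 3 libraries, and 211 to 529 with single libraries left out. The 0 called members after saline became 2 with library weights (Gm10334 and Bhlha15), 1 after quantile scaling (Prss1) and 1 without the 3 libraries (Bhlha15). For S961 against saline in βKlf6KO islets, 0 calls over all genes became 11 with a floor at 1 CPM and 2 with library weights. The causes were not tested.

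Small differences changed sign. The saline difference of Cela1 became 0.0037 with reads scaled to their totals, an alternative chosen after seeing the data, which kept the 4 calls after S961. The saline difference of Ctrb1 became -0.10 with library weights and -0.12 without the 3 libraries, and ran from -0.12 to 0.55 with single libraries left out. With single libraries left out, that of Cela1 ran from -0.30 to 0.13 and that of Pnlip from -0.19 to 0.086. In βKlf6KO islets, S961 minus saline became -0.074 for Cela1 and -0.017 for Pnlip with the replicate block, and -0.033 for Ctrb1 after quantile scaling. The saline difference of the Try4 to Cpa1 ratio (0.23) became -0.26 with Ctrb1 in place of Cpa1. Differences of the rare trypsinogens Prss1 and Gm10334 were 2.29 to 3.46 times smaller with a floor at 1 CPM.

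Same-numbered libraries did not deviate together: over 38 pairs from different groups, the correlation of their deviations had a median of -0.07, was over 0.1 in 13 pairs and ran from -0.71 to 0.85. The main fit did not pair libraries by number. In the S961 groups, libraries with the same number were also on the same lane. The block left 0 calls at 0, while the called members after S961 went from 4 to 9. The median correlation with Cpa1 was 0.781 with Pnlip in its place and, in an alternative chosen after seeing the data, 0.894 without the 3 libraries. Depth did not limit the abundant enzymes, while Prss1, Gm10334, Ctrc and Rbpjl had 1 or 2 reads in their lowest libraries.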
